A study of Mus musculus with 12 samples.

Results

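Interferon-stimulated genes are the genes a cell switches on after an interferon has bound its receptor. A set of 39 such genes was followed by name through 4 groups of mouse fat samples. Of these, 36 had a probe set annotated to that gene alone and were measured, among 19938 genes measured by the same rule. The other members were not analysed here: the probe sets found for Isg15 and Gbp2 are annotated to more than a single gene, and none was found for Ifi44. Where a gene had several probe sets, which among the members was so only for Irf1, the brightest over the 12 arrays stood for it.

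Each of the 4 groups held 3 biological replicates, on 1 Affymetrix array apiece. Cultured adipocytes made up 3 of them, differentiated from 3T3-L1 cells, from primary embryonic fibroblasts of the mouse (PMEF) or from embryonic stem (ES) cells of the mouse. The last was epididymal white adipose tissue (eWAT), the fat pad beside the testis, of healthy wild-type mice. 3T3-L1 is a single immortal clonal line of mouse fibroblast origin, so its replicates share that clone. No undifferentiated cells were among the samples. The labels name no interferon treatment, and they leave out strain, age and culture conditions, so that cell source, culture and differentiation protocol cannot be told apart between the cultured groups.

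Type I interferons bind Ifnar1 and Ifnar2, whose kinases Tyk2 and Jak1 phosphorylate Stat2. With Irf9 it takes part in a complex that binds the interferon-stimulated response element, while interferon gamma acts through Ifngr1 and Ifngr2 on genes that hold the gamma-activated sequence. The induced proteins detect foreign nucleic acid, block viral replication, feed peptides to class I molecules and, in the case of Usp18, dampen the receptor. In fat, adipocytes, their precursors and resident macrophages can all respond to interferon.

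The promoters of 5 members are printed to show the elements through which interferon is known to act, each as the 160 bases before the RefSeq start site on the gene's own strand (build GRCm38.p6). In the Ifit1, Ifit3, Rsad2 and Gbp3 sequences capitals mark the core GAAANNGAAA of the interferon-stimulated response element, here as its reverse complement. In the Irf1 sequence they mark the gamma-activated sequence TTCNNNGAA. Irf1 is set beside the others because its levels ordered the 4 groups differently.
Ifit1 (chr19:34640729-34640888, plus strand): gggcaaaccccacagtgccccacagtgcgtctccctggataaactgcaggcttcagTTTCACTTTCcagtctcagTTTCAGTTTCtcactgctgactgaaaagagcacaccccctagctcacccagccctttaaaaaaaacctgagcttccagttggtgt
Ifit3 (chr19:34583369-34583528, plus strand): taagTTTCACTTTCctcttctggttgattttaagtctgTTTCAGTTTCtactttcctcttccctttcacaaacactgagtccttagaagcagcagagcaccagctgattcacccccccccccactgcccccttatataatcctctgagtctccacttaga
Rsad2 (chr12:26456453-26456612, minus strand): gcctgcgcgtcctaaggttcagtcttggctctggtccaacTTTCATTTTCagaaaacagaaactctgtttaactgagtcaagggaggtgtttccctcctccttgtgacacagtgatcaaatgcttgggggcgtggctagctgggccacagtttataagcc
Gbp3 (chr3:142559884-142560043, plus strand): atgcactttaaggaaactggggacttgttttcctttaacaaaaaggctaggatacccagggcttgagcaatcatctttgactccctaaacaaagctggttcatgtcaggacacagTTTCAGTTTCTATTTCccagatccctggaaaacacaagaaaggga
Irf1 (chr11:53769854-53770013, plus strand): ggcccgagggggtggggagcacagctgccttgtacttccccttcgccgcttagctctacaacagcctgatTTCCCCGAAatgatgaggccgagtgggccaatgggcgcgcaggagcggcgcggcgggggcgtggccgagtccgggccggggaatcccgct

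Ifit1 and Ifit3 each hold 2 separate cores in these stretches, and the 16 capitals of Gbp3 are 2 cores that overlap. RefSeq promoter windows, from 250 bases before to 50 after a start site, were available for 30 of the 39 members. Searched on both strands, the core was present in 13 of the 30 members (43.3%) and in 1079 of 27025 genes with a window (3.99%). The gamma-activated sequence was present in 8 of the 30 (26.7%) and in 2582 of the genes (9.55%). Bst2, Eif2ak2, Ifitm3 and Oas1a held both, and in Bst2 and Ifitm3 the matches share bases. Irf1, Ifi35, Ifit2 and Psmb8 held the gamma-activated sequence alone. Of these, Irf1 had its lowest mean level in PMEF and the others in 3T3-L1. Trim25, also lowest in PMEF, held neither. For Irf1 and Trim25 the sign of the PMEF difference from 3T3-L1 hung on the scaling of the arrays. Whether motif and order of groups are linked was not tested. A match in these letters is a description of the window and not a measured binding site.

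All levels are log2 intensities as the authors deposited them, so that a difference of 1 is a 2-fold change. They compare a gene between groups and not with another gene. Differences keep their sign, so that a gene lower by -1 stood 1 log2 unit under the level it is compared with. Array medians over all genes lay at 6.107 to 6.121 in 3T3-L1 and at 6.311 to 6.355 elsewhere, and correlations between arrays were 0.992 to 0.997 within groups. As a guide to background, 1027 olfactory receptor genes had a median level of 3.685, with a 95th percentile of 5.094 to 5.289 by group. Adipoq, the adipokine adiponectin, averaged 11.49 in 3T3-L1, 11.99 in PMEF, 12.21 in ES and 12.44 in eWAT. Lep, the adipokine leptin, averaged 4.52, 5.75 and 6.58 in the same cultures and 10.44 in tissue. Of 8 markers of pluripotent cells, 4 averaged under the olfactory level in the ES group, Pou5f1 among them at 4.21. Called higher there than in eWAT were 5 of the 8, where 28.8% of all genes were, with Sox2 at 5.63 (1.62 ± 0.12 over eWAT).

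Single arrays stood apart on these genes. The first eWAT array was the lowest of its group for 34 of the 36 members, against 33.6% of all genes, and the first PMEF array for 32, against 40.6%. In the ES group the second array was the highest for 31 members, against 36.4% of all genes. Where a call printed here changes without 1 of these arrays, that is said beside it.

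3T3-L1 adipocytes had the lowest mean level of 34 of the 36 members, and the remaining Irf1 and Trim25 were lowest in PMEF. The highest mean lay in ES for 18 members, in eWAT for 13, in PMEF for 5 and in 3T3-L1 for none. All 3 arrays of 3T3-L1 lay below the other 9 arrays for 29 members, against 10.3% of all genes, and above them for none, against 17.1%. The ES arrays lay above all others for 11 members (8.31% of all genes), which were Dhx58, Zbp1, Usp18, Trim25, Ifit1, Ifit3, Mx2, Gbp3, Ifi35, Rtp4 and Xaf1. They lay below for none (4.94%). The eWAT arrays lay above for 5 members, Herc6, Dtx3l, Parp14, Psmb8 and Psmb9 (11.3%), and below for none (12%). The PMEF arrays lay above for Ifit2 and Ifitm3 (9.83%) and below for Irf1 (7.94%). Without the first eWAT array, the remaining eWAT arrays lay above for 13 members, against 13.5% of all genes.

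**Figure D1:**
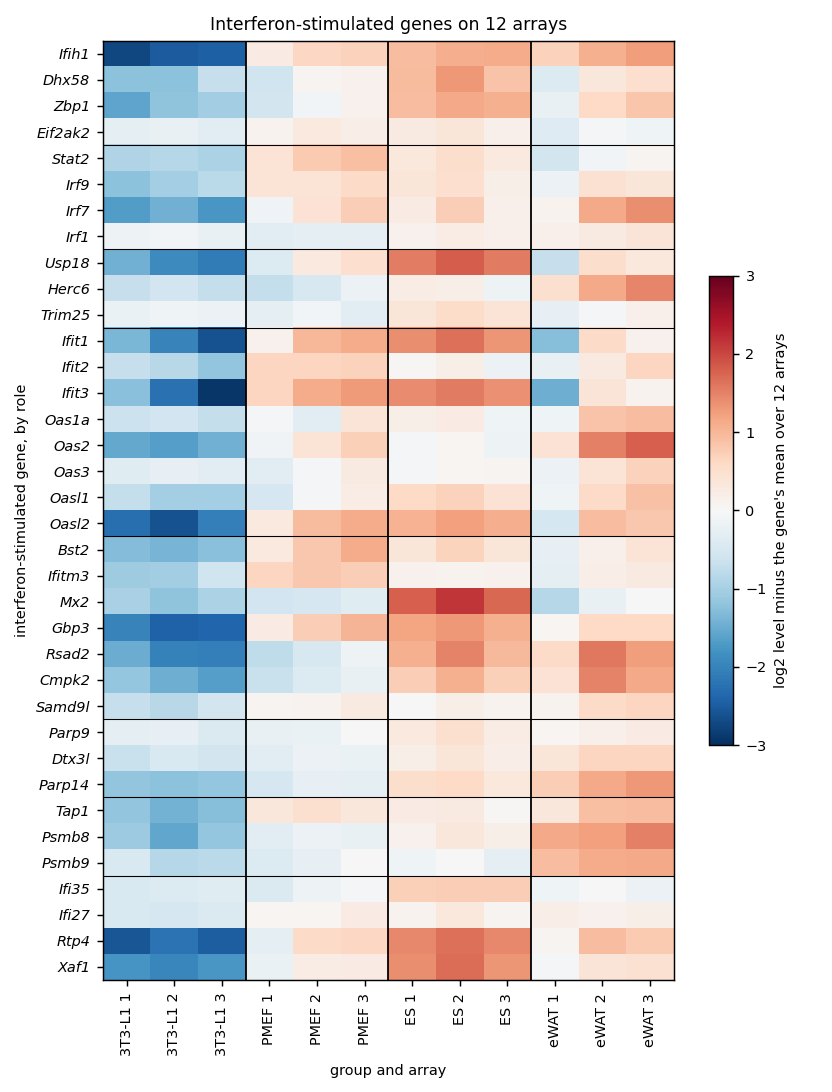
Log2 level of each of the 36 measured interferon-stimulated genes on the 12 arrays, as the difference from the gene's own mean over the arrays (colour, log2 units), with genes in rows by role and arrays in columns by group. The 3T3-L1 columns are the lowest for 34 genes on average, and the first eWAT column is paler or bluer than the other eWAT columns for nearly the whole set.

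In 3T3-L1 against eWAT, 34 of the 36 members were lower at an adjusted p under 0.05, where 22.5% of all genes were, and 26 of them at least 2-fold, where 8.49% were. None was higher, where 30.8% of all genes were; all 36 differences lay below 0, and limma called none higher at an unadjusted p under 0.05 either. The median difference over the members was -1.56, beside 0.05 over all genes. The members not called were Trim25, at -0.12 ± 0.10 (moderated SE), and Eif2ak2, at -0.08 ± 0.10. No call in this comparison ended without any single array. Centring arrays on their medians moved the median of all genes from 0.05 to 0.26 and called 32 members lower, and centring on 8 reference genes moved it to -0.41 and called all 36 lower. Of those 8 genes 6 were themselves called higher in 3T3-L1 than in eWAT (median 0.535), so that centring on them lowers 3T3-L1. The calls lost on median centring were Ifi35, from -0.31 (adjusted p = 0.0103) to -0.10 (adjusted p = 0.319), and Oas3, from -0.62 (adjusted p = 0.00923) to -0.41 (adjusted p = 0.0523).

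PMEF adipocytes differed from eWAT in fewer members. Lower in PMEF were 11 of 36, where 21.6% of all genes were, and higher were 5, Stat2, Eif2ak2, Ifit3, Bst2 and Ifitm3, where 24.7% were. The median difference was -0.29, beside 0.05 over all genes. These counts hung on single arrays: without the first eWAT array 3 members were higher and 20 lower, and without the third PMEF array 3 were higher and 14 lower. The 9 members that gained a lower call without the first eWAT array were Zbp1, Irf7, Trim25, Oas1a, Oas3, Oasl1, Mx2, Samd9l and Tap1, at differences from -0.28 for Trim25 to -0.91 for Irf7. With all arrays, the lower count lay above the share over all genes and the higher count below it. By at least 2-fold, 6 members were lower, where 5.46% of all genes were, and 1 was higher, where 4.92% were. Whether these counts depart from the shares was not tested.

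ES adipocytes showed members on both sides of eWAT. Higher in ES were 13 of 36, where 28.8% of all genes were, and lower were 8, where 20.9% were. The median difference was 0.09, beside 0.04 over all genes. Both counts, which take any size of difference, were near the shares over all genes. Without the first eWAT array 12 were higher and 13 lower, with lower calls gained for Irf7, Ifit2, Oas1a, Oas3 and Cmpk2. On reference gene centring the median difference was -0.09, beside -0.14 over all genes. Higher by at least 2-fold were 5 members, Mx2, Ifit3, Ifit1, Usp18 and Xaf1, where 4.39% of all genes were. Lower by at least 2-fold were 3, Oas2, Psmb9 and Psmb8, where 5.86% were. These comparisons share the eWAT arrays, so each is given for itself.

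**Figure D2:**
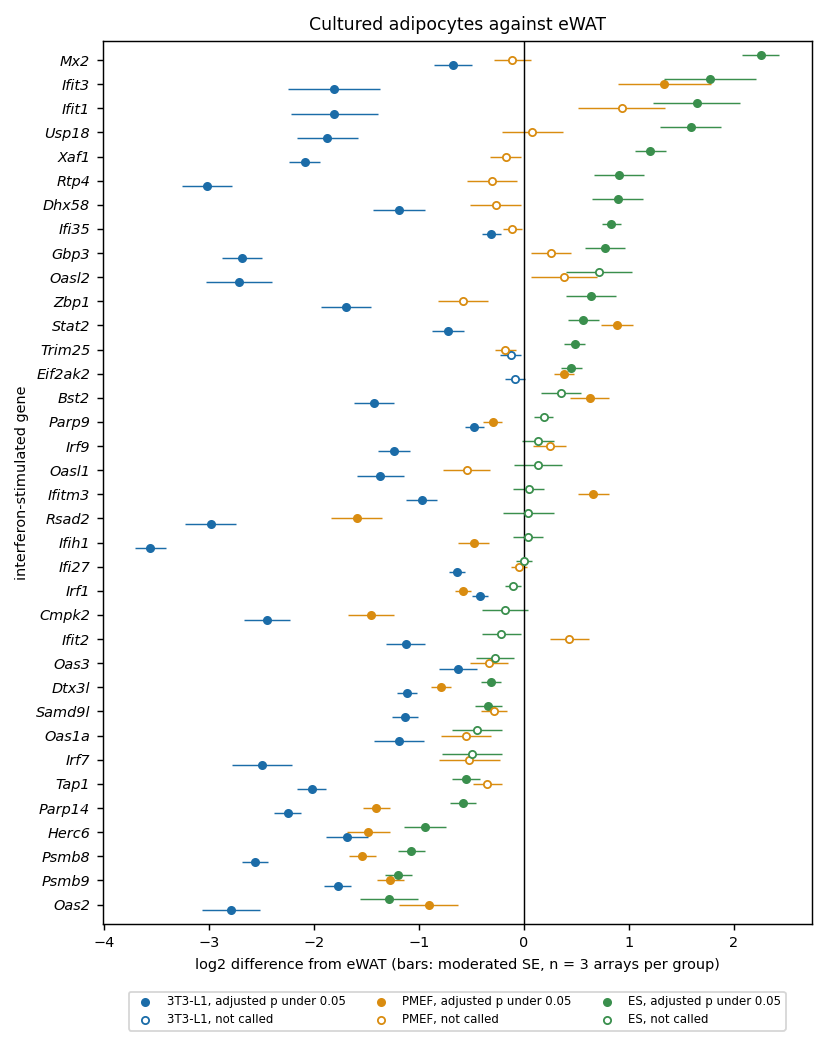
Log2 difference of each cultured group from eWAT for the 36 genes, ordered by the ES difference, with the moderated standard error (n = 3 arrays per group). Filled points passed an adjusted p under 0.05 over all genes. The 3T3-L1 points all lie left of 0, while the ES points run from 2.26 for Mx2 to -1.28 for Oas2.

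Among the cultured groups, 30 members were higher in PMEF than in 3T3-L1, where 22.3% of all genes were. None was lower, where 27.8% were, and limma called none lower at an unadjusted p under 0.05 either. In ES 35 of 36 were higher than in 3T3-L1, all but Oas3 (0.35 ± 0.18, adjusted p = 0.141), where 20.4% of all genes were. Oas3 too was called without the first eWAT array (adjusted p = 0.0367), with the arrays of both groups alone (adjusted p = 0.00209), with array weights (adjusted p = 0.0395) and on reference gene centring (0.63, adjusted p = 0.0104). None was lower, where 23% were, nor was any at an unadjusted p under 0.05 in limma. ES was higher than PMEF for 19 members, where 23.6% of all genes were, and lower for Ifit2 and Ifitm3, where 19% were. Without the first PMEF array 16 members were higher and 4 lower, and without the first or the second ES array 16 were higher. Reference gene centring called 14 higher and 3 lower. Median differences were 1.07, 1.5 and 0.47, beside 0.01, -0.02 and -0.02 over all genes. Centring on array medians moved the medians of all genes against 3T3-L1 to -0.21 and -0.23, and reference genes to 0.45 and 0.26, and on the former 2 members were called lower in PMEF than in 3T3-L1.

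The sensors were led by Ifih1, which encodes MDA5, a cytoplasmic receptor for long double-stranded RNA. Its level was 5.09, 5.35 and 5.38 in the 3T3-L1 arrays, 8.08, 8.46 and 8.54 in PMEF, 8.77, 8.92 and 8.94 in ES and 8.53, 8.89 and 9.08 in eWAT. The 3T3-L1 arrays lay far below the rest, close to the olfactory level, and the ES and eWAT arrays overlapped. Ifih1 was 11.8-fold lower in 3T3-L1 than in eWAT (-3.56 ± 0.14, adjusted p = 1.48e-10), a larger size than that of any other member in that comparison. In ES it differed from eWAT by 0.04 ± 0.14. It was lower in PMEF by -0.48 ± 0.14 (adjusted p = 0.0157), a call that ended without the third eWAT array at -0.35 (adjusted p = 0.0774), and also without the first PMEF or the second eWAT array.

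Dhx58, encoding LGP2, a regulator of RNA sensing, and Zbp1, a sensor of Z-form nucleic acids, were highest in ES. Dhx58 read 5.60, 5.59 and 6.13 in 3T3-L1, 6.23, 6.89 and 6.96 in PMEF, 7.78, 8.12 and 7.68 in ES and 6.4, 7.16 and 7.33 in eWAT. The ES arrays stood above all others and the PMEF and eWAT arrays overlapped. In ES, Dhx58 was higher than in eWAT by 0.89 ± 0.25 (adjusted p = 0.00796) and higher than in PMEF by 1.16 ± 0.25 (adjusted p = 0.00166). Zbp1 was higher in ES than in eWAT by 0.64 ± 0.24 (adjusted p = 0.0398), and without the first eWAT array by 0.32 (adjusted p = 0.179); the call also ended without the second PMEF array or any 1 ES array. Eif2ak2, the kinase PKR that halts translation on double-stranded RNA, moved little, from a mean of 7.69 ± 0.07 (SD) in 3T3-L1 to 8.23 ± 0.10 in ES. Its differences from eWAT were -0.08 in 3T3-L1 (not called), 0.39 in PMEF (adjusted p = 0.00471) and 0.46 in ES (adjusted p = 0.00129).

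The transcription factors did not share an order. Stat2 and Irf9 are subunits of the complex that binds the response element, and Irf7 amplifies the production of interferon. Stat2 read 7.59, 7.64 and 7.55 in 3T3-L1, 8.90, 9.29 and 9.40 in PMEF, 8.82, 9.03 and 8.80 in ES and 7.95, 8.42 and 8.57 in eWAT. Both PMEF and ES lay above every eWAT array, and 3T3-L1 below. The Stat2 differences from eWAT were -0.72 ± 0.15 in 3T3-L1 (adjusted p = 0.00104), 0.89 ± 0.15 in PMEF (adjusted p = 0.000267) and 0.57 ± 0.15 in ES (adjusted p = 0.00632). Irf9 averaged 7.54 ± 0.20 in 3T3-L1 and 8.77 to 9.02 in the other groups, and only the 3T3-L1 difference from eWAT passed the test (-1.24 ± 0.15, adjusted p = 1.14e-05). Irf7 was 5.63-fold lower in 3T3-L1 than in eWAT (-2.49 ± 0.29, adjusted p = 5.19e-06). In PMEF and ES its differences were -0.52 ± 0.29 and -0.49 ± 0.29, not called, but without the first eWAT array they were -0.91 (adjusted p = 0.00474) and -0.88 (adjusted p = 0.00493).

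Irf1, a factor that interferon gamma induces strongly, broke the pattern of the others. Its level was 7.79, 7.85 and 7.72 in 3T3-L1, 7.59, 7.66 and 7.63 in PMEF, 8.07, 8.16 and 8.07 in ES and 8.08, 8.20 and 8.33 in eWAT. The PMEF arrays lay below all others, the 3T3-L1 arrays next, and ES and eWAT overlapped. Irf1 was lower than in eWAT by -0.57 ± 0.07 in PMEF (adjusted p = 2.36e-05) and by -0.42 ± 0.07 in 3T3-L1 (adjusted p = 0.000284). PMEF and 3T3-L1 differed by -0.16 ± 0.07 (adjusted p = 0.0993), which median centring made -0.38 (adjusted p = 0.000637) and reference gene centring 0.28 (adjusted p = 0.00609). With the mean of the 2 Irf1 probe sets in place of the brighter, Irf1 was higher in ES than in PMEF by 0.17 (adjusted p = 0.0605) where the brighter alone gave 0.47 ± 0.07 (adjusted p = 0.00016).

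Of the genes around Isg15, the ubiquitin-like modifier itself being unmeasured, Usp18 removes it from proteins and Herc6 attaches it in mice. Usp18 read 6.58, 6.09 and 5.91 in 3T3-L1, 7.60, 8.31 and 8.53 in PMEF, 9.56, 9.83 and 9.57 in ES and 7.33, 8.53 and 8.33 in eWAT. Every ES array exceeded every array of the other groups by about 1 log2 unit or more, and PMEF and eWAT overlapped. Usp18 was 3.01-fold higher in ES than in eWAT (1.59 ± 0.29, adjusted p = 0.000438), 2.85-fold higher than in PMEF (adjusted p = 0.000829) and 11-fold higher than in 3T3-L1 (adjusted p = 4.25e-07). Herc6 went the other way, with 8.07, 8.74 and 9.05 in eWAT above all cultured arrays, which reached at most 7.80 in ES. It was lower than in eWAT by -1.69 ± 0.20 in 3T3-L1 (adjusted p = 7.16e-06), -1.48 ± 0.20 in PMEF (adjusted p = 3.74e-05) and -0.94 ± 0.20 in ES (adjusted p = 0.00146). Herc6 was higher in ES than in PMEF by 0.54 ± 0.20 (adjusted p = 0.0465), and the call ended without any 1 of 8 arrays, furthest without the first PMEF array at 0.41 (adjusted p = 0.158). Trim25, a ubiquitin ligase that activates RIG-I, was higher in ES than in eWAT by 0.49 ± 0.10 (adjusted p = 0.00105); it differed between PMEF and 3T3-L1 by -0.05 ± 0.10, by -0.27 (adjusted p = 0.0345) on median centring and by 0.39 (adjusted p = 0.00564) on reference gene centring.

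The Ifit proteins bind viral RNA. Ifit3 read 8.4, 7.41 and 6.72 in 3T3-L1, 10.28, 10.76 and 10.93 in PMEF, 11.06, 11.21 and 11.02 in ES and 8.17, 10.03 and 9.76 in eWAT. The ES arrays lay above all others, the PMEF arrays above every eWAT array, and the first eWAT array within the range of 3T3-L1. Ifit3 was lower in 3T3-L1 than in eWAT by -1.81 ± 0.44 (adjusted p = 0.00314) and higher in ES by 1.78 ± 0.44 (adjusted p = 0.00399). In PMEF it was higher by 1.34 ± 0.44 (adjusted p = 0.0233), which without the first eWAT array became 0.77 (adjusted p = 0.0965); the call also ended without the second or the third PMEF array, and with a trended and robust variance (adjusted p = 0.0741).

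Ifit1 followed Ifit3, with 7.2, 6.58 and 5.96 in 3T3-L1, 8.69, 9.56 and 9.69 in PMEF, 9.97, 10.22 and 9.89 in ES and 7.30, 9.14 and 8.70 in eWAT. It was 3.49-fold lower in 3T3-L1 (adjusted p = 0.00207) and 3.13-fold higher in ES (adjusted p = 0.00439) than in eWAT. The PMEF difference of 0.93 ± 0.41 was not called (adjusted p = 0.0828), though it was without the second eWAT array, at 1.31 (adjusted p = 0.0249), or the first PMEF array. Ifit2 had another order. It read 5.96, 5.81 and 5.44 in 3T3-L1, 7.28, 7.28 and 7.34 in PMEF, 6.68, 6.82 and 6.45 in ES and 6.41, 6.90 and 7.27 in eWAT, so that PMEF was highest and ES overlapped with eWAT. Ifit2 was higher in PMEF than in ES, with an ES minus PMEF difference of -0.65 ± 0.18 (adjusted p = 0.011). The genes of this family resemble each other in sequence, and whether their probe sets share signal was not tested.

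**Figure D3:**
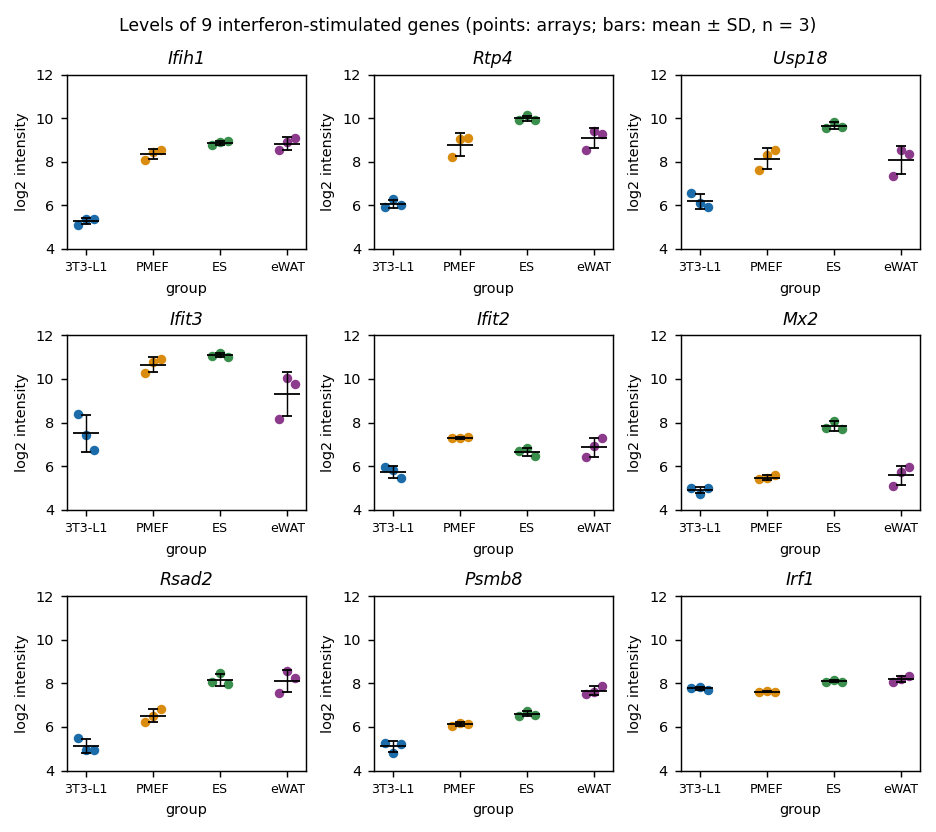
Log2 intensity of Ifih1, Rtp4, Usp18, Ifit3, Ifit2, Mx2, Rsad2, Psmb8 and Irf1 on each array (points) with the group mean and SD (bars, n = 3), on 1 scale for all panels. Usp18 and Mx2 show ES above the other groups, Psmb8 shows eWAT above, and Ifit3 shows the low first eWAT array at 8.17.

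Oas enzymes make the short oligoadenylates that activate RNase L, and the Oas-like proteins Oasl1 and Oasl2 are their relatives. All 5 measured members of this family were lower in 3T3-L1 than in eWAT, from -0.62 ± 0.18 for Oas3 (adjusted p = 0.00923) to -2.79 ± 0.28 for Oas2 (adjusted p = 1.25e-06). Oas2 read 5.61, 5.48 and 5.68 in 3T3-L1, 7.02, 7.55 and 7.85 in PMEF, 7.11, 7.18 and 6.99 in ES and 7.56, 8.65 and 8.94 in eWAT. ES lay below every eWAT array and 3T3-L1 below everything. Oas2 was 2.44-fold lower in ES than in eWAT (-1.28 ± 0.28, adjusted p = 0.0016). In PMEF it was lower by -0.91 ± 0.28 (adjusted p = 0.0166), a call that ended without the third eWAT array at -0.63 (adjusted p = 0.0843), and without the second eWAT or first PMEF array.

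Oasl2 had another order, with 6.55, 6.22 and 6.76 in 3T3-L1, 9.13, 9.77 and 9.95 in PMEF, 9.87, 10.05 and 9.93 in ES and 8.30, 9.76 and 9.63 in eWAT. It was 8.58-fold higher in PMEF (adjusted p = 1.48e-06) and 10.8-fold higher in ES (adjusted p = 8.93e-07) than in 3T3-L1. Its differences from eWAT were 0.39 ± 0.31 in PMEF and 0.72 ± 0.31 in ES, neither called; without the second eWAT array the latter was 0.98 (adjusted p = 0.027). Oas1a was higher than in 3T3-L1 by 0.64 ± 0.24 in PMEF (adjusted p = 0.0398) and 0.74 ± 0.24 in ES (adjusted p = 0.0221). These calls ended without any 1 of 5 and of 4 arrays, furthest at 0.45 (adjusted p = 0.176) without the third PMEF array and at 0.67 (adjusted p = 0.0744) without the second ES array. Oasl1 was higher in ES than in PMEF by 0.68 ± 0.23 (adjusted p = 0.0261), and by 0.48 (adjusted p = 0.113) without the first PMEF array. That call also ended without the first or the second ES array, and on reference gene centring (adjusted p = 0.0713).

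Mx2, a GTPase that restricts viruses, was the member with the largest ES difference from eWAT. It read 4.99, 4.74 and 5.0 in 3T3-L1, 5.39, 5.45 and 5.59 in PMEF, 7.75, 8.09 and 7.69 in ES and 5.09, 5.73 and 5.94 in eWAT. ES stood alone, 3T3-L1 was under the olfactory level on average, and PMEF and eWAT overlapped. Mx2 was 4.78-fold higher in ES than in eWAT (2.26 ± 0.18, adjusted p = 1.86e-07) and 5.16-fold higher than in PMEF (adjusted p = 1.79e-07). Its means of 5.58 in eWAT and 5.47 in PMEF were little above the olfactory level, so these folds are imprecise. In 3T3-L1 it was lower than in eWAT by -0.67 ± 0.18 (adjusted p = 0.00544). PMEF exceeded 3T3-L1 by 0.56 ± 0.18 (adjusted p = 0.0168), but by 0.48 (adjusted p = 0.0684) without the second 3T3-L1 array and by 0.35 (adjusted p = 0.107) with arrays centred on their medians.

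Rsad2, encoding viperin, and Cmpk2, a nucleotide kinase encoded next to it, showed the same order of the cultured groups. Rsad2 read 5.5, 4.96 and 4.93 in 3T3-L1, 6.22, 6.51 and 6.84 in PMEF, 8.05, 8.48 and 7.95 in ES and 7.56, 8.56 and 8.23 in eWAT. The PMEF arrays lay between 3T3-L1 and the rest without overlap, and ES and eWAT overlapped. Rsad2 was 7.91-fold lower in 3T3-L1 (adjusted p = 1.54e-07) and 3.02-fold lower in PMEF (adjusted p = 9.92e-05) than in eWAT, and ES differed from eWAT by 0.04 ± 0.24. Cmpk2 was 5.44-fold lower in 3T3-L1 (adjusted p = 4.18e-07) and 2.74-fold lower in PMEF (adjusted p = 9.16e-05), and in ES it differed from eWAT by -0.17 ± 0.22, or by -0.47 (adjusted p = 0.0356) without the first eWAT array. Both averaged under the olfactory level in 3T3-L1, as did Mx2 and Psmb8, so their folds against that group are imprecise.

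Gbp3, an interferon-induced GTPase, read 5.60, 5.18 and 5.23 in 3T3-L1, 7.86, 8.35 and 8.64 in PMEF, 8.80, 8.90 and 8.68 in ES and 7.66, 8.20 and 8.20 in eWAT. It was 6.43-fold lower in 3T3-L1 than in eWAT (adjusted p = 3.92e-08) and 1.71-fold higher in ES (adjusted p = 0.00382). The ES and PMEF arrays did not overlap, but their difference of 0.51 ± 0.19 (adjusted p = 0.0446) lost its call without any 1 of 7 arrays, furthest without the first PMEF array at 0.30 (adjusted p = 0.188). Bst2, or tetherin, and Ifitm3, which blocks viral entry, were highest in PMEF. Ifitm3 read 10.57, 10.59 and 11.04 in 3T3-L1, 12.29, 12.45 and 12.37 in PMEF, 11.76, 11.74 and 11.76 in ES and 11.35, 11.85 and 11.92 in eWAT, with PMEF above all others. It was higher in PMEF than in eWAT by 0.66 ± 0.14 (adjusted p = 0.00191) and lower in ES than in PMEF by -0.62 ± 0.14 (adjusted p = 0.00346). Bst2 was higher in PMEF than in eWAT by 0.63 ± 0.19 (adjusted p = 0.0153), and by 0.44 (adjusted p = 0.0798) without the third PMEF array, and the call also ended without the first eWAT array. Samd9l, an antiviral relative of Samd9, was lower in 3T3-L1 by -1.13 ± 0.13 (adjusted p = 3.45e-06); its ES difference from eWAT of -0.34 ± 0.13 (adjusted p = 0.0391) lost its call without any 1 of 6 arrays, furthest at -0.24 (adjusted p = 0.166) without the third eWAT array, and was -0.51 (adjusted p = 0.00052) without the first.

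Parp9 and Dtx3l form an ADP-ribosylation and ubiquitin complex, and Parp14 is a mono-ADP-ribosyl transferase. Parp14 differed between all groups, with 6.42, 6.37 and 6.45 in 3T3-L1, 7.10, 7.37 and 7.30 in PMEF, 8.12, 8.21 and 7.92 in ES and 8.34, 8.74 and 8.91 in eWAT. No pair of groups overlapped. It was lower than in eWAT by -2.25 ± 0.13 in 3T3-L1 (adjusted p = 4.08e-09), -1.40 ± 0.13 in PMEF (adjusted p = 7.26e-07) and -0.58 ± 0.13 in ES (adjusted p = 0.0018). Dtx3l had the same order, at 7.94 ± 0.10, 8.27 ± 0.09, 8.75 ± 0.10 and 9.05 ± 0.16 (SD, n = 3). Its ES difference from eWAT was -0.31 ± 0.09 (adjusted p = 0.0143), which was -0.26 (adjusted p = 0.0607) without the third eWAT array and also lost its call without the second eWAT or first ES array. Its PMEF difference from 3T3-L1 of 0.33 (adjusted p = 0.0101) was 0.11 (adjusted p = 0.331) with arrays centred on their medians. Parp9 spanned less, from 7.71 ± 0.10 in 3T3-L1 to 8.37 ± 0.13 in ES, and its PMEF difference from eWAT of -0.30 ± 0.09 (adjusted p = 0.0154) was -0.25 (adjusted p = 0.0623) without the third eWAT array and was lost too without the first or second PMEF array.

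Tap1, a subunit of the transporter that carries peptides to class I molecules, and the immunoproteasome subunits Psmb8 and Psmb9 were lower in 3T3-L1 than in eWAT. Psmb8 read 5.28, 4.83 and 5.22 in 3T3-L1, 6.06, 6.20 and 6.15 in PMEF, 6.51, 6.73 and 6.57 in ES and 7.51, 7.61 and 7.90 in eWAT, again with no pair of groups overlapping. Against eWAT it was 5.91-fold lower in 3T3-L1 (adjusted p = 8.58e-10), 2.9-fold lower in PMEF (adjusted p = 2.33e-07) and 2.1-fold lower in ES (adjusted p = 7.71e-06). Psmb9 read 8.43, 8.61 and 8.64 in eWAT and at most 7.52 in any culture, and its differences from eWAT were -1.77, -1.27 and -1.19, each ± 0.13, all called. Tap1 lay closer, at 7.86 ± 0.08 in PMEF, 7.65 ± 0.13 in ES and 8.20 ± 0.33 in eWAT, against 6.18 ± 0.11 in 3T3-L1. Its PMEF difference from eWAT of -0.35 ± 0.14 was not called (adjusted p = 0.0515), but it was -0.54 (adjusted p = 0.000424) without the first eWAT array. Tap1 was called lower in ES, by -0.55 ± 0.14 (adjusted p = 0.00381).

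Rtp4, a chaperone of receptor transport that interferon induces, read 5.92, 6.27 and 6.02 in 3T3-L1, 8.20, 9.05 and 9.11 in PMEF, 9.93, 10.13 and 9.92 in ES and 8.56, 9.42 and 9.27 in eWAT. ES was above every other array and 3T3-L1 below. Rtp4 was 8.08-fold lower in 3T3-L1 than in eWAT (adjusted p = 1.19e-07) and 15.2-fold higher in ES than in 3T3-L1 (3.92 ± 0.24, adjusted p = 1.69e-08), with 1.88-fold between ES and eWAT (adjusted p = 0.00593). Xaf1, a proapoptotic factor, had the same order of groups but PMEF and eWAT close, at 5.98 ± 0.11 in 3T3-L1, 7.90 ± 0.25 in PMEF, 8.07 ± 0.28 in eWAT and 9.28 ± 0.19 in ES. It was 2.31-fold higher in ES than in eWAT (adjusted p = 1.43e-05). Ifi35 stood out in ES by its small spread, with 8.77, 8.79 and 8.79 there and at most 8.03 elsewhere, and exceeded eWAT by 0.83 ± 0.09 (adjusted p = 4.07e-06). Ifi27, an interferon-inducible protein, averaged 11.36 to 11.40 in PMEF, ES and eWAT and 10.77 ± 0.03 in 3T3-L1, where it was lower than in eWAT by -0.63 ± 0.08 (adjusted p = 9.63e-06).

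Within groups the members varied more than other genes did. Their median SD within a group was 0.152 in 3T3-L1, 0.246 in PMEF, 0.128 in ES and 0.342 in eWAT, beside 0.088, 0.107, 0.081 and 0.111 over all genes. On average over the members, the first eWAT array lay at -0.45 from its group's mean and the others at 0.20 and 0.25. The PMEF arrays lay at -0.25, 0.06 and 0.20, those of ES at -0.04, 0.14 and -0.10, and those of 3T3-L1 at 0.07, -0.04 and -0.03. Among 40 further measured interferon-stimulated genes the first eWAT array was lowest for 35, the first PMEF array lowest for 30 and the second ES array highest for 31.

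**Figure D4:**
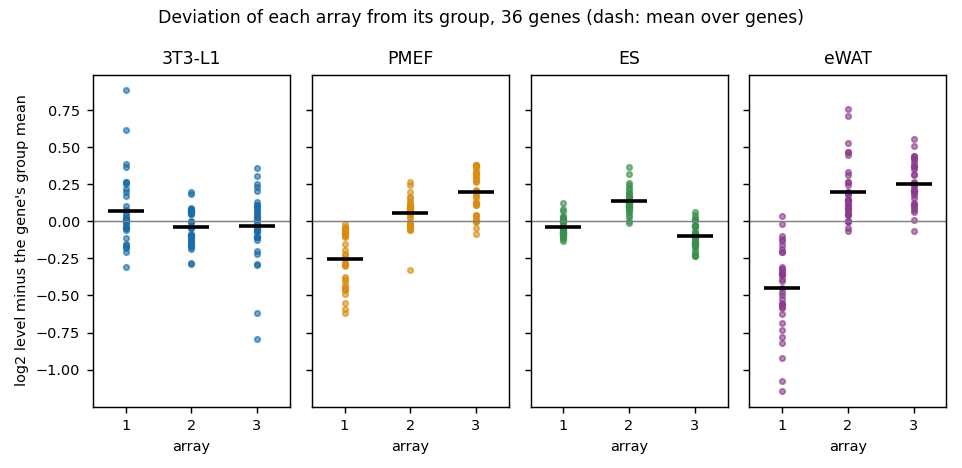
Log2 level of each of the 36 genes on an array minus the gene's mean in its group (points), with the mean over the genes (dash), for the 3 arrays of each group. The first eWAT array averages -0.45 and the first PMEF array -0.25, while the 3T3-L1 arrays scatter around 0.

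Markers of other cells were read beside these values. Over 14 macrophage markers the mean level on the eWAT arrays was 8.80, 9.48 and 9.82, and the first array, low for the members, was the lowest for 14 of 14. The same mean was 5.33 to 5.46 on the 3T3-L1 arrays, 5.82 to 5.91 on those of PMEF and 5.09 to 5.12 on those of ES. Against eWAT all 14 markers were lower in PMEF and in ES and 13 in 3T3-L1, where 20.9% to 22.5% of all genes were. In 3T3-L1 Cd68 was higher by 0.93 ± 0.19. In ES, where 13 members exceeded eWAT, 9 of the 14 were under the olfactory level, Adgre1 at 4.06 and Ptprc at 4.60 among them, as were 9 in 3T3-L1 and 3 in PMEF. Between the cultures, 9 of the 14 were higher in PMEF than in 3T3-L1, Lyz2 by 2.94 ± 0.20, and 2 lower, where 22.3% and 27.8% of all genes were. None was higher in ES than in 3T3-L1 and limma called 2 lower, where 20.4% and 23% were. The part of macrophage RNA in the eWAT levels and in the PMEF differences was not tested. In RNA from whole tissue or whole cultures, fewer cells of a type and less RNA per cell cannot be told apart. All 9 endothelial markers were lower in each culture than in eWAT, and on the first eWAT array their mean was 9.49, above 9.22 and 9.16 on the others, the reverse of the members.

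The levels read for the interferons themselves differed little between groups. Most of them lay under the olfactory level, where a difference is hard to read. Of 15 measured ligand genes, 10 averaged under the olfactory level in 3T3-L1, PMEF and eWAT and 8 in ES. Ifnl2 averaged 6.84 to 7.15, Ifna5 6.63 to 6.8 and Ifnz 6.12 to 6.56, above that level in every group, and every difference between groups was within 0.47 on the log2 scale. Ifnb1 averaged 3.66, 4.13, 4.0 and 3.96 in 3T3-L1, PMEF, ES and eWAT. It was called higher than in 3T3-L1 in PMEF, by 0.47 ± 0.12 (adjusted p = 0.0062), and in ES, by 0.34 ± 0.12, a call that ended without the third 3T3-L1 array or any 1 ES array. All its levels were under the olfactory level, where a difference is hard to read. Ifng averaged 5.19 to 5.33 and differed nowhere by more than 0.15. In 3T3-L1 against eWAT limma called no ligand, and 1 at an unadjusted p under 0.05, which was Ifnb1 (-0.30, adjusted p = 0.0566); it was called without any 1 of 4 arrays.

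The type I receptor chains were present in every group. Ifnar1 averaged 8.65 in eWAT, and its differences of 0.11 for 3T3-L1, 0.10 for PMEF and 0.18 for ES, each ± 0.07, were not called, though the last was without any 1 of 3 arrays. Ifnar2 was lower than in eWAT by -0.72, -0.82 and -0.87 (each ± 0.08), without a called difference between the cultures. For interferon gamma, Ifngr1 was lower by -1.25, -0.93 and -1.0 (± 0.10) and Ifngr2 higher by 0.79, 0.95 and 0.38 (± 0.07). Of the kinases, Jak1 differed by -0.07, 0.11 and 0.15 (± 0.08), none called. Tyk2 was lower by -0.33, -0.34 and -0.50 (± 0.09), and Jak2 was higher in 3T3-L1 by 0.50 and lower in PMEF and ES by -0.41 and -0.58 (± 0.09). Receptors and kinases thus held 2 higher and 4 lower in 3T3-L1, 1 and 5 in PMEF and 1 and 5 in ES, of 9 each. Of all genes, 24.7% to 30.8% were higher and 20.9% to 22.5% lower in these comparisons. Of the inhibitors, Socs1 was called in none of the comparisons with eWAT when all arrays were used, though in PMEF (0.25) it was without any 1 of 3 arrays. Ptpn2 was higher in 3T3-L1 by 0.73 and in ES by 0.51 and lower in PMEF by -0.33 (each ± 0.08). Cish was lower by -2.678, -1.545 and -1.478 in 3T3-L1, PMEF and ES. The PMEF (adjusted p = 0.0187) and ES (adjusted p = 0.0217) calls ended without the second or the third eWAT array, among others. The ES call also ended without the second ES array (adjusted p = 0.0521). Without the first eWAT array these differences were -2.387 and -2.32. Of the 7 inhibitors 1, 0 and 1 were higher and 3, 4 and 3 lower than in eWAT.

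Upstream, Rigi encodes the RNA sensor RIG-I, a relative of MDA5. It was lower in 3T3-L1 than in eWAT by -1.10 ± 0.14 (adjusted p = 1.43e-05), differed by 0.31 ± 0.14 in PMEF without a call (0.44 and adjusted p = 0.0247 without the first PMEF array) and was higher in ES by 0.91 ± 0.14. Sting1, the adaptor of DNA sensing, was lower in 3T3-L1 by -1.91 ± 0.14 and in ES by -1.32 ± 0.14, and differed by 0.26 ± 0.14 in PMEF, not called, or by 0.41 (adjusted p = 0.0217) without the third eWAT array. Mavs, the adaptor of Rigi and Ifih1, did not follow them: its 3T3-L1 difference of 0.17 ± 0.07 was not called, except without the first eWAT array (0.21, adjusted p = 0.0324) or the second ES array, and it was lower in PMEF by -0.66 ± 0.07 and in ES by -0.34 ± 0.07. The endosomal receptors Tlr7 and Tlr9 and the factors Irf5 and Irf8, which immune cells use, were lower in each culture, Tlr7 by -3.61, -2.75 and -3.21 (± 0.27), against cultures in which it averaged under the olfactory level, and Irf8 by -1.41, -1.39 and -1.23 (± 0.07). Of 13 measured genes of the sensing pathway, 1, 2 and 1 were higher and 6, 6 and 6 lower than in eWAT in 3T3-L1, PMEF and ES. The shares over all genes were 30.8%, 24.7% and 28.8% higher and 22.5%, 21.6% and 20.9% lower.

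Other interferon-stimulated genes, listed apart from the members, were also lower in 3T3-L1 for the most part. Of 40 measured, 35 were lower and 1 higher in 3T3-L1 than in eWAT (median -1.72), where 22.5% and 30.8% of all genes were. In PMEF 24 were lower and 6 higher (median -0.52), where 21.6% and 24.7% of all genes were. In ES 16 were lower and 10 higher (median -0.10), where 20.9% and 28.8% were, the higher count thus near the share over all genes. Slfn5 was lower in 3T3-L1 by -5.83 ± 0.07 and, at a mean of 4.53, under the olfactory level there, but higher in PMEF by 0.89 ± 0.07. Cxcl9, a chemokine that interferon gamma induces, was lower in the 3T3-L1, PMEF and ES groups by -4.98, -4.18 and -3.75 (± 0.12). Cxcl10, a chemokine that both kinds of interferon induce, was lower in 3T3-L1 by -1.75 ± 0.32 (adjusted p = 0.000379), differed by -0.10 in PMEF and was higher in ES by 1.40 ± 0.32 (adjusted p = 0.00256). Without the first eWAT array Cxcl10 was lower in PMEF by -0.61 (adjusted p = 0.0138) and higher in ES by 0.89 (adjusted p = 0.0011). Mx1 averaged 4.82, 4.90, 5.93 and 5.70 in 3T3-L1, PMEF, ES and eWAT and, like Mx2, was higher in ES than in PMEF (1.02 ± 0.28, adjusted p = 0.01), where PMEF and 3T3-L1 were under the olfactory level, so that the size is imprecise. Of 8 class I presentation genes outside the members, B2m was lower in the 3 cultures by -0.87, -0.33 and -0.63 (± 0.07), Erap1 by -1.25, -1.36 and -1.47 (± 0.10), and Psme2 was higher by 0.21, 0.36 and 0.76 (± 0.07), the first of these a call that ended without the second eWAT array (0.14, adjusted p = 0.112) or the second or the third 3T3-L1 array.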

How the data were processed

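RNA of 12 samples (4 groups of 3) was labelled as cDNA and hybridised to 1-colour Affymetrix arrays, per the labels' protocols. The deposited values are log2 intensities that the authors had already normalized. Their software and method are not stated in the labels, and base 2 was read from the values, whose highest, 13.48, would as a natural log exceed a scanner's range. Of 35556 probe sets, 21789 carried 1 gene symbol, 1621 several and 12146 none. Symbols were updated through Entrez numbers to RefSeq, and of several single-symbol probe sets the brightest stood for a gene, which gave 19938 genes. No filter was set on dim genes.

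A model with 4 groups was fitted to all genes and all arrays in limma 3.58.1 (R 4.3.3; lmFit and eBayes, 8 residual degrees of freedom), with 6 comparisons. Adjusted p-values are Benjamini-Hochberg values over the 19938 genes of a comparison, two-sided, and a gene was called under 0.05; every adjusted p in the text is of this kind. The number of arrays limits the precision. On simulated data for 3T3-L1 against eWAT (19938 genes), 5 of 50 genes changed by 0.25 on the log2 scale were called. At larger changes 33 of 50 were called at 0.5, 49 of 50 at 1 and 50 of 50 at 2. Only these genes were changed there, with noise drawn independently for each gene. In the real comparison 30.8% of all genes were called higher and 22.5% lower, which loosens the threshold. The simulated shares therefore do not give its sensitivity.

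All measured members are described. Genes of other lists are a selection, some named for a large called difference and others whatever their result. Not every called gene of those lists is named. Members and lists were chosen with earlier results of these data known. Each result was recomputed under 21 settings: other scalings, filters, variance models, the mean of probe sets, array weights, arrays of the 2 groups alone, a replicate block, and leaving out each array. Over all genes, arrays with the same replicate number did not deviate together (correlations of -0.137 to 0.108 over 18 pairs). The numbers were therefore not used as pairs. Over the members, the first arrays of PMEF and eWAT both lay low, at -0.25 and -0.45 from their group means. The first arrays of 3T3-L1 and ES lay at 0.07 and -0.04. The labels call the samples biological triplicates.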

Additional observations from a re-analysis of the deposited data

How the results depend on the processing

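Of 4536 values recomputed under the alternatives, 4332 kept their direction and side of the threshold, 86 lost a call, 65 gained one, 51 changed sign with no call on either side, and 2 changed sign into a call. Those were Irf1 (0.281, adjusted p = 0.00609) and Trim25 (0.388, adjusted p = 0.00564) in PMEF against 3T3-L1, with arrays centred on the reference genes. Of the 8 reference genes, 6 were themselves called lower in PMEF than in 3T3-L1. Members called, in either direction, ranged from 32 to 36 for 3T3-L1 against eWAT, 14 to 23 for PMEF, 18 to 25 for ES, 28 to 36 for PMEF against 3T3-L1, 33 to 36 for ES against 3T3-L1 and 17 to 23 for ES against PMEF. Members with all PMEF arrays above the others numbered 1 with median centring and 2 to 4 when single arrays were left out. Members with all PMEF arrays below numbered 0 with quantile normalization, with reference genes and with probe sets averaged per gene, and 1 to 2 when single arrays were left out. Members with all eWAT arrays above numbered 5 to 13 when single arrays were left out. Array weights called 17 members lower in PMEF than in eWAT, against 11. The labels do not describe the replicate number as a pairing. With that number as a block, 34, 17 and 22 members were called against eWAT. Between the cultured groups 30, 35 and 20 were called. Genes near or under the olfactory level in a group have imprecise folds.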
